A study of Homo sapiens with 4 samples.

Results

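The forkhead factors described here are 10 human genes, FOXO1, FOXO3, FOXO4, FOXP1, FOXP2, FOXP4, FOXK1, FOXK2, FOXJ1 and FOXM1, out of 18417 genes measured with a probe set of their own. They were chosen by symbol, and each was read from the brightest probe set that carries its symbol alone, by mean signal over the 4 arrays. MDA-MB-231 is an established breast cancer cell line of basal-like, mesenchymal character. One group was MDA-MB-231 transfected with a FOXC1 plasmid (2 arrays), and the other was MDA-MB-231 transfected with the vector (2 arrays). Both groups were grown in DMEM with 10% fetal bovine serum, penicillin and streptomycin, and both went through the same lipid transfection. The sources used here do not say whether the cells kept the plasmid for good, or whether a group is a pool or 1 clone. RNA was hybridised to Affymetrix whole-transcript gene arrays, and the values are linear PLIER signal, which is the brightness summarised over the probes of a transcript. The comparison asks how the RNA of forkhead relatives differs when FOXC1, itself a forkhead factor, is added.

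Forkhead factors share a winged-helix domain that binds short DNA sites with a core such as GTAAACA, and different members can bind the same site. FOXO factors sit at the end of the insulin and growth factor pathway: when AKT or SGK kinases phosphorylate them they leave the nucleus, and when that signal is low they switch on genes of cell cycle arrest, cell death, stress defence and fasting metabolism. FOXP factors are mainly repressors that work as dimers, FOXK factors bind DNA in proliferating cells and are tied to glycolysis and autophagy genes, FOXJ1 drives genes of motile cilia, and FOXM1 drives genes of G2 and mitosis.

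Promoter sequences are shown for the members that moved furthest, FOXP2 and FOXO4, and for the FOXK pair, which moved together. They are the 250 bases before a RefSeq start site (build GRCh38.p14), 5′ to 3′ on the gene's strand, with any of 4 heptamers in capitals, read on both strands. These are the core GTAAACA, its relative GTAAATA, the form ATAAACA or the form ATAAATA. The table holds 8 of the 10 members. FOXJ1 and FOXM1 are named only.
FOXP2 (chr7:114414565-114414814, + strand): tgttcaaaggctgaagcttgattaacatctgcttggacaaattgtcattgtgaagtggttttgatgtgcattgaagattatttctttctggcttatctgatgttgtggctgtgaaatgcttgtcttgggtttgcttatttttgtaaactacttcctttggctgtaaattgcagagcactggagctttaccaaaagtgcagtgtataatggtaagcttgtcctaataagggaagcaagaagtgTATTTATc
FOXO4 (chrX:71095601-71095850, + strand): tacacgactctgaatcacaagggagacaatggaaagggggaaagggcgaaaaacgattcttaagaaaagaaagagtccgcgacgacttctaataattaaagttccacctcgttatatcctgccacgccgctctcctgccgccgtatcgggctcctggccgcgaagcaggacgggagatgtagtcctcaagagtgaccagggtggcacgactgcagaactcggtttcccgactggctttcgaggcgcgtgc
FOXK1 (chr7:4682045-4682294, + strand): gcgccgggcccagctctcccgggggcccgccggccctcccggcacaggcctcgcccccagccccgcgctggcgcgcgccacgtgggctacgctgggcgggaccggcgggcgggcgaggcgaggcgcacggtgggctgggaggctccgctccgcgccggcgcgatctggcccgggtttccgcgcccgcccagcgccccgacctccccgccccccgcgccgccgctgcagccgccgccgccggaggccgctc
FOXK2 (chr17:82519482-82519731, + strand): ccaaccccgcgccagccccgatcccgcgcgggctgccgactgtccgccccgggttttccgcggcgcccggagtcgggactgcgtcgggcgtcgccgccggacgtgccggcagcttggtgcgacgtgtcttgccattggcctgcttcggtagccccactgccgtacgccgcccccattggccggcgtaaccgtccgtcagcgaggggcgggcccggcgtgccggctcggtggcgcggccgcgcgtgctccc
The FOXP2 window shown holds ATAAATA on the reverse strand, starting 8 bases before the start site, the window of its other listed start (chr7:114426252-114426501) holds no heptamer, and the FOXO4, FOXK1 and FOXK2 windows hold none of the heptamers. G and C made up 37.6% of the FOXP2 window shown and 54.4% of that of FOXO4. They made up 85.6% of the FOXK1 window and 77.2% of the FOXK2 window. At least 1 of the heptamers stood in 12.4% of all 35116 windows of this length in the table, and GTAAACA in 2.98%. FOXP1, with 6 listed starts, and FOXO3, with 4, also hold matches, which are shown with the bases beside them because FOXP1 is the member with the GTAAACA core.
FOXP1 (chr3:71245253-71245281, - strand): aactatgttatTGTTTACtttaccataca
FOXP1 (chr3:71583737-71583765, - strand): gaatctattgtTATTTATtgtgtggcggt
FOXO3 (chr6:108560672-108560700, + strand): ccgagcgaaacATAAACAaacgcacgcac
A heptamer stood in 4 of the 17 windows of the 8 members (23.5%), against 12.4% of all windows. These are windows of 3 members, which have more listed starts than most genes. FOXP2 is the member among those 3 that passed the test below. A match is a description of letters, and binding was not measured.

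The arrays of the series were close to each other. Median signal over all 33297 probe sets was 499 and 512 on the FOXC1 arrays and 492 and 489 on the vector arrays, and the correlation of log2 signal across probe sets, which are not independent, was 0.998 within each group and 0.989 between groups. The cell line was checked against its markers. VIM, CD44, EGFR, CAV1, MSN and AXL, known to be high in this line, had signals between 5071 and 16478 on the FOXC1 arrays and between 4453 and 17018 on the vector arrays. Estrogen receptor ESR1 had 261 and 273 on the FOXC1 arrays and 245 and 246 on the vector arrays, below the 25th percentile of signal, which was 277. Of 5 markers listed as low in this line, ESR1 and PGR were below that percentile and GATA3, ERBB3 and KRT19 were not. The keratin KRT19 had 3932 and 3747 on the FOXC1 arrays and 4585 and 4496 on the vector arrays. Of the other cell types, 2 of 4 endothelial markers fell (PECAM1 and KDR), 1 of 6 leukocyte markers rose (PTPRC, under 100 on every array) and 1 of 6 fibroblast markers rose (DCN). In the same test 15.9% of all genes rose and 15.5% fell. Of the 6 markers known to be high in this line, 2 rose and 3 fell. Summed endothelial signal was 1974 and 1988 on the FOXC1 arrays and 2638 and 2837 on the vector arrays. The part of these markers in the results was not tested. FOXC1 RNA itself was not analysed here and gave no check of the labels.

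FOXC1-transfected cells had lower FOXO4 and FOXP2 and slightly lower FOXP4, and slightly higher FOXK1, FOXK2 and FOXJ1. In RNA from whole cultures, fewer cells of a type and less RNA per cell cannot be told apart. In limma, fitted over all named probe sets with Benjamini-Hochberg adjustment, 3 of the 10 members rose and 3 fell, and 4 did not pass. Over all 18417 genes, 15.9% passed as higher and 15.5% as lower, 31.4% in all. Of these calls 50.6% were higher, a share that was 33.9% with each array centred on its median over all rows and 59.6% with centring over named probe sets. Brighter genes passed more often. In the fit above the 50th percentile of signal (782), 2484 of 9328 genes rose and 2336 fell, so shares of bright and dim lists are not alike. The changes were small: the median absolute log2 change was 0.14 over the 10 members and 0.11 over all genes. The signed median was near 0 in the members (-0.0034) and 0.03 over all genes. The 2 falls of FOXO4 and FOXP2 held in all 15 and all 14 alternative settings that tested each and could have ended the call. The rises depended on the scaling, and 0 of the 3 passed when each array was centred on its median over all rows of the table, an alternative chosen after seeing the data. With all 4 arrays in hand an exact permutation test cannot go below p = 0.333, so the calls rest on the spread shared across probe sets.

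**Figure D1:**
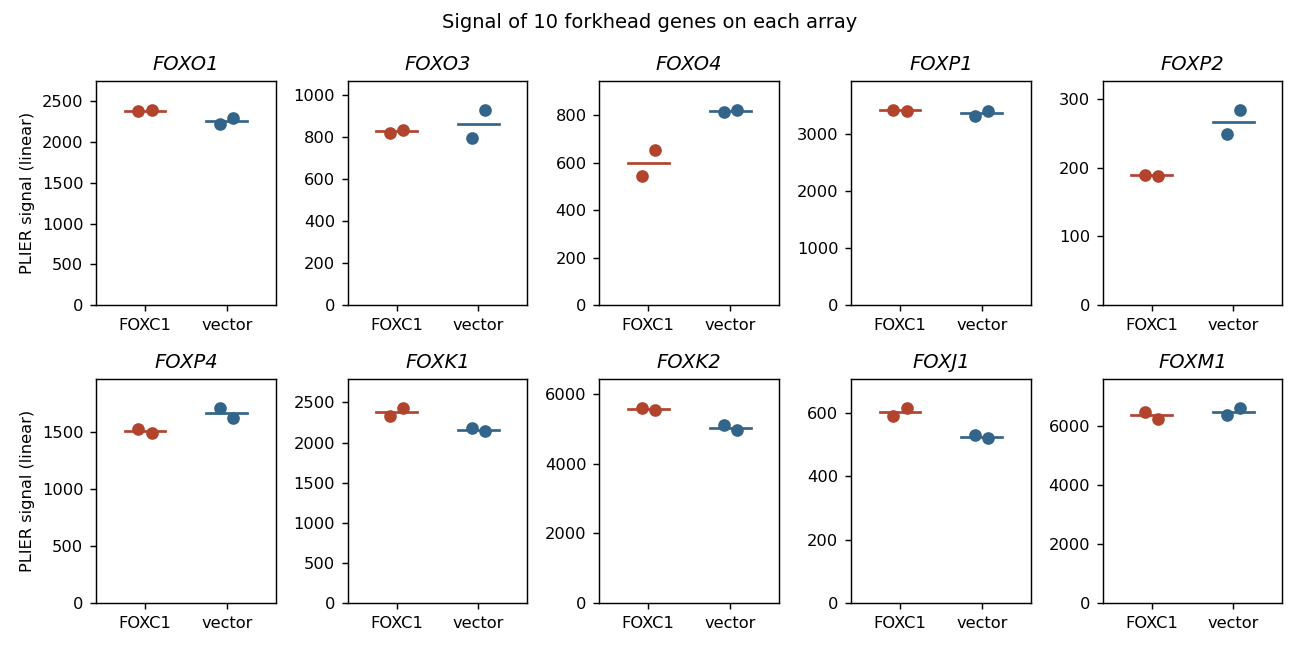
Linear PLIER signal (vertical axis, from 0) of the 10 forkhead genes, FOXC1 arrays left and vector arrays right in each panel; points are single arrays and lines are means of 2 arrays. The FOXO4 points lie at 545 and 654 in FOXC1 cells and at 814 and 821 in vector cells, and the FOXM1 points of the groups overlap.

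Among the FOXO factors, FOXO4 was the member that passed the test. FOXO4 is known to restrain the cell cycle. FOXO4 had signals of 545 and 654 on the FOXC1 arrays and 814 and 821 on the vector arrays. Both FOXC1 arrays lay below both vector arrays, and the FOXC1 arrays differed from each other more than the vector arrays did. The mean was 600 ± 76.9 in FOXC1 cells and 818 ± 4.86 in vector cells (SD, n = 2 each), a log2 change of -0.44 ± 0.08 (SE), 1.36-fold lower, with a limma adjusted p of 9.87e-05. The change was -0.31 without FOXC1 replicate 1 and -0.57 without FOXC1 replicate 2, and it passed in both. A larger absolute log2 change was measured in 5.16% of all genes.

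FOXO1, the FOXO member best known from the liver's response to insulin, had 2384 and 2392 on the FOXC1 arrays and 2225 and 2292 on the vector arrays. The groups did not overlap, which held for 63.5% of all genes, and the difference was small. The log2 change of FOXO1 was 0.08 ± 0.04 (SE), with a 95% interval from -0.0041 to 0.16 and a limma adjusted p of 0.147. It passed under 1 scaling, the median centring over named probe sets (log2 0.10, adjusted p = 0.0378).

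FOXO3, the member tied to stress resistance and to death of cells that lose growth factors, was measured by a pair of probe sets that did not give the same answer. The probe set of FOXO3 alone had 820 and 835 on the FOXC1 arrays and 797 and 928 on the vector arrays, so that the groups overlapped. Here the log2 change was -0.05 ± 0.07 (SE; 95% interval -0.20 to 0.09; limma adjusted p = 0.608). The other probe set is annotated to FOXO3 and to its near-copy FOXO3B on chromosome 17 together. It had 4419 and 4206 on the FOXC1 arrays and 3898 and 3890 on the vector arrays, with no overlap. The shared probe set thus rose by 0.15 ± 0.03 on the log2 scale (SE), 1.11-fold, with a limma adjusted p of 0.00201. Transcripts of the copies cannot be told apart in the shared probe set, so it was not used to name FOXO3, and with it in place 4 members would pass as higher.

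The FOXP factors differed among themselves. FOXP2, known for its role in speech and in the developing brain and lung, had an absolute change close to that of FOXO4, and which of the pair was larger turned with the offset and with the array left out. FOXP2 had 190 and 188 on the FOXC1 arrays and 249 and 283 on the vector arrays. Both FOXC1 arrays lay below both vector arrays. The log2 change was -0.46 ± 0.10 (SE), 1.37-fold lower, with a limma adjusted p of 0.00111, and a larger absolute change was measured in 4.78% of all genes. Its signals lay around or under the 25th percentile of 277, so that it was not part of the fits restricted to brighter probe sets, and adding 64 in place of 16 before the logarithm gave a 1.3-fold fall.

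FOXP4, a lung and gut development factor, had 1518 and 1489 on the FOXC1 arrays and 1706 and 1619 on the vector arrays, again with no overlap. It fell by 0.14 ± 0.05 on the log2 scale (SE), 1.10-fold lower, with a limma adjusted p of 0.0277. FOXP4 stayed past the threshold when FOXC1 replicate 1 was left out, but not when FOXC1 replicate 2 (adjusted p = 0.0586), vector replicate 1 (0.35) or vector replicate 2 (0.0608) was. FOXP1, known from B cell and heart development, had 3408 and 3404 on the FOXC1 arrays and 3311 and 3402 on the vector arrays. Every FOXC1 value was above every vector value, the nearest pair only narrowly. The log2 change was 0.02 ± 0.04 (SE; 95% interval -0.05 to 0.09; limma adjusted p = 0.698), and its sign turned under median centring over all rows (-0.02).

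Both FOXK genes had higher signal by about the same amount. FOXK2 had 5594 and 5529 on the FOXC1 arrays and 5100 and 4953 on the vector arrays. Its log2 change was 0.15 ± 0.03 (SE), 1.11-fold higher, with a limma adjusted p of 0.000663. FOXK1 had 2334 and 2431 on the FOXC1 arrays and 2182 and 2139 on the vector arrays. FOXK1 rose by 0.14 ± 0.04 on the log2 scale (SE), 1.10-fold higher, with a limma adjusted p of 0.013. In neither gene did the groups overlap. Leaving out FOXC1 replicate 2 (adjusted p = 0.0583), vector replicate 1 (0.0598) or vector replicate 2 (0.149) ended the FOXK1 call, whereas FOXK2 passed without each array in turn. With all-row median centring the log2 change was 0.10 in both genes and neither passed (adjusted p = 0.189 for FOXK1 and 0.0544 for FOXK2).

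FOXJ1, the master regulator of motile cilia, had 591 and 616 on the FOXC1 arrays and 531 and 520 on the vector arrays. The FOXC1 arrays were both above the vector arrays. FOXJ1 rose by 0.19 ± 0.07 on the log2 scale (SE), 1.14-fold higher, with a limma adjusted p of 0.0414. This was the rise nearest to the threshold, and it did not pass once FOXC1 replicate 2 (adjusted p = 0.12), vector replicate 1 (0.158) or vector replicate 2 (0.237) was left out, or with all-row median centring (0.134).

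FOXM1, the mitotic activator, had 6502 and 6245 on the FOXC1 arrays and 6373 and 6625 on the vector arrays. The groups overlapped. The FOXM1 log2 change was -0.03 ± 0.03 (SE; 95% interval -0.09 to 0.03), with a limma adjusted p of 0.526, and its sign turned without FOXC1 replicate 2. The interval bounds a fall of FOXM1 at 0.09 on the log2 scale in this fit.

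**Figure D2:**
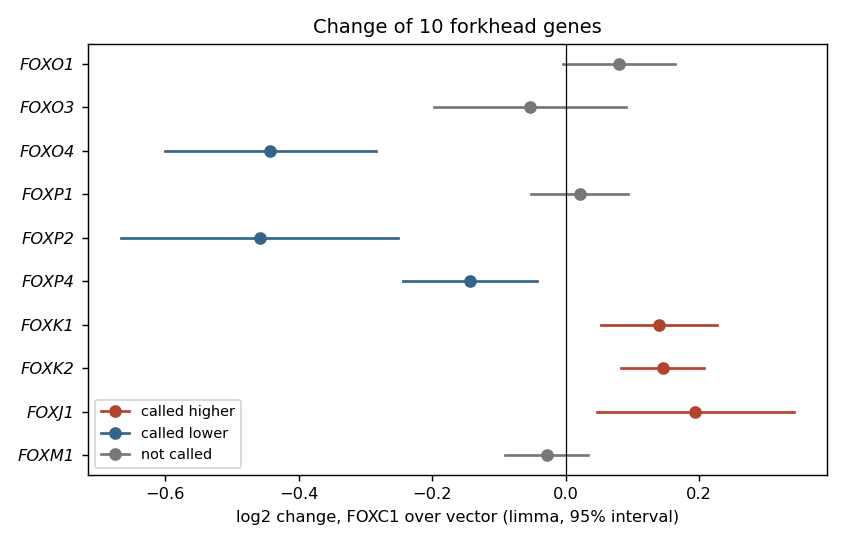
Log2 change of each forkhead gene in FOXC1 over vector cells (horizontal axis), with points for the limma estimate and bars for its 95% interval; red genes were called higher, blue lower and grey neither. FOXO4 at -0.44 and FOXP2 at -0.46 lie apart from the other 8 genes, whose estimates run from -0.14 to 0.19.

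Among the genes whose pattern over the 4 arrays was most like that of FOXP2, by Euclidean distance between mean-centred log2 values, were the sulfotransferase SULT1C2 (distance 0.01) and the tetraspanin TSPAN1 (0.05). SULT1C2 had 131 and 128 on the FOXC1 arrays and 174 and 197 on the vector arrays. The measure rests on 4 values a gene.

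Of the forkhead genes outside the 10 members 29 were measured, of which 5 fell and 1 rose, which is 17.2% lower and 3.45% higher beside 15.5% and 15.9% of all genes. FOXA1, the pioneer factor of luminal breast epithelium, had 199 and 212 on the FOXC1 arrays and 540 and 556 on the vector arrays (log2 -1.35 ± 0.09 SE). FOXQ1, a neighbour of FOXC1 in the genome, had 1507 and 1492 on the FOXC1 arrays and 2021 and 2095 on the vector arrays (log2 -0.45 ± 0.05 SE). FOXA2 (log2 -0.27), FOXN3 (-0.26) and FOXJ2 (-0.16) also fell, and FOXB1 rose (0.19). The FOXJ2 call was lost without vector replicate 1 and without vector replicate 2, the FOXB1 call without vector replicate 2, and without FOXC1 replicate 1 the count of calls was 10, of which 5 were higher. Luminal markers moved with FOXA1, which is itself one of them. Of 8 luminal markers, 6 were lower in FOXC1 cells (75%, against 15.5% of all genes), and their summed signal was 21209 and 20865 on the FOXC1 arrays and 25060 and 25602 on the vector arrays. The receptor PGR had 107 and 96.8 on the FOXC1 arrays and 96.8 and 89.8 on the vector arrays, like ESR1 below the 25th percentile of signal. The part of luminal markers in the FOXA1 value was not tested.

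FOXO targets as a group were the list with the most falls. Of 34 known targets, all measured, 18 fell and 4 rose, against 15.5% and 15.9% of all genes, and the median log2 change was -0.14 where that of all genes was 0.03. Of the 26 targets above the 50th percentile of signal, 16 fell and 4 rose, beside 2336 falls and 2484 rises among 9328 genes. The death ligand TNFSF10 had 112 and 80.2 on the FOXC1 arrays and 275 and 318 on the vector arrays. Its log2 change was -1.49 ± 0.13 (SE), 2.81-fold lower, or 3.09-fold when 1 and 2.26-fold when 64 was added to the signal in place of 16. PDK4, a kinase that shuts glucose carbon out of mitochondria during fasting, had 209 and 243 on the FOXC1 arrays and 525 and 542 on the vector arrays. Its log2 change was -1.19 ± 0.09 (SE), 2.27-fold lower. The FOXC1 arrays lay far below the vector arrays in both genes, with limma adjusted p of 6.79e-09 for TNFSF10 and 1.07e-09 for PDK4.

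The stress protein SESN3, which restrains mTORC1 signalling, had 202 and 183 on the FOXC1 arrays and 438 and 391 on the vector arrays (log2 -1.05 ± 0.09 SE). FBXO32, a ubiquitin ligase subunit of muscle wasting, had 1138 and 1033 on the FOXC1 arrays and 1878 and 1841 on the vector arrays (log2 -0.77 ± 0.05 SE). The other 14 falls were smaller, and their log2 changes ran from -0.54 in the peroxide-degrading enzyme CAT to -0.14 in TRIB1. The 4 rises were the growth arrest gene GADD45A (3048 and 3034 on the FOXC1 arrays, 1951 and 1973 on the vector arrays, log2 0.63), the transcription cofactor CITED2 (log2 0.47), the autophagy gene GABARAPL1 (0.30) and the cell cycle inhibitor CDKN1A (0.22). The insulin pathway target IRS2 fell (log2 -0.23), while the insulin receptor INSR had log2 -0.05 and the death gene BCL2L11 0.15, and neither passed. Without a variance trend 11 targets fell and 3 rose, and between 17 and 22 passed without each array in turn.

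**Figure D3:**
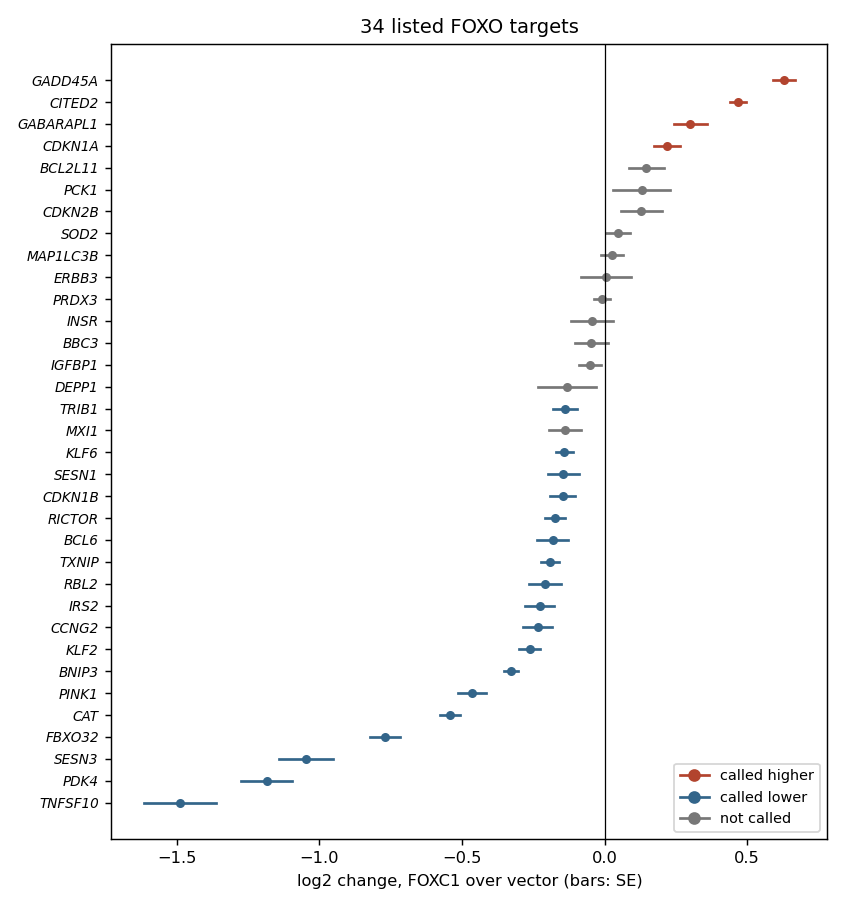
Log2 change in FOXC1 over vector cells (horizontal axis) of 34 known FOXO targets, ordered by change, with bars for the SE from limma. The 4 genes at the bottom, TNFSF10, PDK4, SESN3 and FBXO32, lie between -1.49 and -0.77, and the 4 called rises lie between 0.22 and 0.63.

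The GTAAACA core was also looked for before the start sites of these targets. Of 27 targets in the promoter table, 4 hold it (14.8%, beside 3.66% of all genes). By window the core stood in 4 of 39 (10.3%, beside 2.98%). Any of the 4 heptamers stood before 5 of the 27 (18.5%, beside 14.8% of all genes). By window that was 5 of 39 (12.8%, beside 12.4%). The target added is SESN1, which holds GTAAATA and fell (log2 -0.15, limma adjusted p = 0.0477). This call was lost with an added 1, with quantile normalization and with median centring over named probe sets. The 4 with the core are shown because FOXO factors are known to bind it.
TXNIP (chr1:145996686-145996714, - strand): tcgggctcctgGTAAACAaggaccgggca
BCL2L11 (chr2:111120680-111120708, + strand): gagttactccgGTAAACAcgccagggacg
DEPP1 (chr10:44978972-44979000, - strand): tgccctgcagcGTAAACAttccccagcct
MXI1 (chr10:110210069-110210097, + strand): cgccacctcgtTGTTTACcccgtgccggg
TXNIP fell (log2 -0.19 ± 0.03 SE), and the other 3 did not pass: BCL2L11 (0.15), DEPP1 (-0.13) and MXI1 (-0.14). The core stood before 1 of the 15 targets that fell and before 3 of the 12 others.

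Of 30 measured kinases, cofactors and other regulators of FOXO proteins, 4 rose and 8 fell, 13.3% and 26.7% against 15.9% and 15.5% of all genes. RICTOR, which fell (log2 -0.17), is also on the list of FOXO targets and is counted in both. SKP2 (-0.04), which did not pass, is also on the list of FOXM1 targets. With median centring over named probe sets 8 rose and 8 fell, and 2 rose with centring over all rows. Of the 29 regulators above the 50th percentile of signal, 4 rose and 8 fell, beside 2484 rises and 2336 falls among 9328 genes. SGK1, a kinase that sends FOXO proteins out of the nucleus, had 3433 and 3390 on the FOXC1 arrays and 2411 and 2521 on the vector arrays (log2 0.47 ± 0.04 SE). MTOR rose as well (log2 0.27), as did the ubiquitin ligase MDM2 (0.11) and the kinase STK4 (0.09). The IkB kinase IKBKB (log2 -0.29) and the deacetylase SIRT2 (-0.27) had the largest falls. AKT1 (log2 0.06) and AKT2 (-0.01) did not pass, and phosphorylation was not measured. The MDM2 call was lost without vector replicate 2 and the STK4 call without FOXC1 replicate 1, vector replicate 1 and vector replicate 2, and without a variance trend 3 of the 12 calls were left.

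FOXM1 targets fell slightly in many cases, while FOXM1 did not pass. Of 23 measured targets 11 fell and 1 rose, 47.8% and 4.35% against 15.5% and 15.9% of all genes, with a median log2 change of -0.08 where that of all genes was 0.03. All 23 lay above the 50th percentile of signal, where calls were more frequent: 2336 of 9328 genes fell and 2484 rose. The 12 called were 52.2% of the list, against 31.4% of all genes. In the fit above the 50th percentile 11 of the 23 fell and 1 rose. That total was near the share of genes this bright that were called, with more falls and fewer rises. The spindle checkpoint kinase TTK (log2 -0.16 ± 0.03 SE), cyclin CCNB2 (-0.16 ± 0.03) and the phosphatase CDC25B (-0.16 ± 0.03) had the largest falls. CCNB2 had 7144 and 6786 on the FOXC1 arrays and 7854 and 7685 on the vector arrays. CDC25A, a phosphatase that acts at the start of S phase, was the rise, with 3007 and 2857 on the FOXC1 arrays and 2395 and 2302 on the vector arrays (log2 0.32 ± 0.04 SE). The mitotic kinase PLK1 (log2 -0.02) and AURKB (0.04) did not pass. The count depends on the variance model, the scaling and the vector arrays. Without a variance trend 0 of these genes fell and 1 rose, and with median centring over named probe sets 7 fell and 3 rose. Without vector replicate 1, 6 fell and 1 rose, without vector replicate 2, 7 fell and 2 rose, and in a fit over all rows 6 fell and 1 rose.

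Among 22 regulators and partners of FOXM1, 5 rose and 3 fell, 36.4% in all against 31.4% of all genes. The balance turned with the scaling: with median centring over all rows 2 rose and 6 fell, and the calls of CDK4, CDK6 and MYBL2 were lost. Of the 20 genes of this list above the 50th percentile of signal, 6 rose and 4 fell, beside 2484 rises and 2336 falls among 9328 genes. Cyclin CCNE1 had 1646 and 1592 on the FOXC1 arrays and 1206 and 1205 on the vector arrays (log2 0.42 ± 0.05 SE). E2F3 (log2 0.31), CDK6 (0.13), CDK4 (0.11) and MYBL2 (0.10) were the other rises. The checkpoint kinase CHEK1 had 4397 and 4194 on the FOXC1 arrays and 5776 and 5736 on the vector arrays (log2 -0.42 ± 0.03 SE), and FZR1 (-0.18) and RBBP4 (-0.10) fell too. Without vector replicate 1 the calls of FZR1, RBBP4 and MYBL2 were lost, as was that of MYBL2 without FOXC1 replicate 1. In the fit without vector replicate 1, 5 calls were left.

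For the FOXK pair, 8 of 25 partners and metabolic or autophagy targets fell and 2 rose, 40% in all against 31.4% of all genes. With median centring over named probe sets 7 fell and 5 rose. The list is bright: 24 of its genes lay above the 50th percentile of signal. In that fit 7 of these fell and 2 rose, beside 2336 falls and 2484 rises among 9328 genes. The pyruvate dehydrogenase kinases PDK2 and PDK1 had the largest falls. PDK2 had 2099 and 1986 on the FOXC1 arrays and 2946 and 2851 on the vector arrays (log2 -0.50 ± 0.04 SE). PDK1 had 1349 and 1282 on the FOXC1 arrays and 1748 and 1685 on the vector arrays (log2 -0.38 ± 0.05 SE). The glycolytic enzyme PFKL (log2 -0.22) and the chromatin protein MBD5 (-0.22) fell too. The transcription cofactor HCFC1 (log2 0.17) and the histone demethylase KDM1B (0.14) rose. The corepressor SIN3A, which FOXK proteins bring to DNA, had log2 -0.10 and its paralog SIN3B -0.19, and both fell. Without vector replicate 2 the calls of MBD5, SIN3A, SIN3B, KDM1B and the kinase PDK3 (log2 -0.17) were lost, which left 5. Those of MBD5, SIN3A and PDK3 were also lost without vector replicate 1, and those of SIN3A and PDK3 without FOXC1 replicate 2.

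Of 19 FOXP partners and targets, 5 fell and 2 rose, and the 36.8% called is near the 31.4% of all genes. SRPX2, which FOXP2 is known to repress, had 395 and 361 on the FOXC1 arrays and 554 and 575 on the vector arrays (log2 -0.56 ± 0.08 SE). NFATC2, a partner of FOXP factors in T cells, had log2 -0.36, and the corepressor CTBP2 (-0.17), RUNX1 (-0.16) and HDAC1 (-0.12) also fell. The growth factor receptor MET had 6219 and 6065 on the FOXC1 arrays and 4986 and 4775 on the vector arrays (log2 0.33 ± 0.03 SE). The urokinase receptor PLAUR rose by 0.07, a call lost without FOXC1 replicate 1, vector replicate 1 and vector replicate 2. Both SRPX2 and FOXP2 had lower signal in FOXC1 cells, FOXP2 from dim signals, and control of SRPX2 by FOXP2 was not tested.

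Of 24 measured ciliary genes linked to FOXJ1, 1 rose and 2 fell, a smaller share than the 31.4% of all genes called. The list is dim, and dim genes passed less often. Of its genes, 14 lay above the 25th percentile of signal and 5 above the 50th, where 1 rose and 1 fell. The upstream factor MYB (log2 -0.32) and the transcription factor RFX2 (-0.14) fell, and TP73, also upstream, rose (0.20). No axoneme gene passed. The axoneme genes HYDIN (log2 0.24, limma adjusted p = 0.0828) and DNAH5 (0.23, 0.0886) had higher signal on both FOXC1 arrays than on both vector arrays. So did the dynein assembly factor ZMYND10 (0.22, 0.0865). These genes were picked after their values were seen, and others of the list went the other way. DNAH11 (log2 -0.10) had lower signal on both FOXC1 arrays, and SPEF2 (-0.14) was lower with groups that overlapped. The median log2 change of the list was 0.07, beside 0.03 over all genes. Groups that did not overlap, in either direction, were found in 16 of the 24 genes and in 63.5% of all genes. Without a variance trend 4 genes of the list rose and 1 fell. The ciliated cell markers DNAI1, DNAH9, TEKT1, SPAG6, RSPH1 and CAPS had a summed signal of 2795 and 2943 on the FOXC1 arrays and 2688 and 2678 on the vector arrays, and 0 of the 6 passed in limma, with 0 at an unadjusted p under 0.05. The MYB call was lost without vector replicate 1, the TP73 call without vector replicate 2, and the RFX2 call without FOXC1 replicate 2 and without each vector array.

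**Figure D4:**
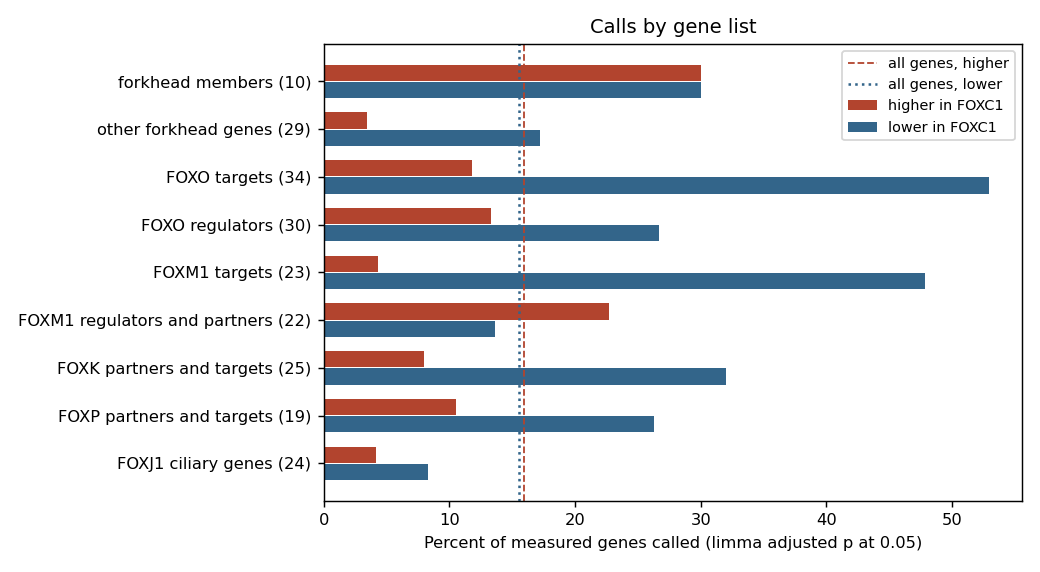
Percent of the measured genes of each list that limma called higher (red) or lower (blue) in FOXC1 over vector cells, with the number measured in brackets and dashed and dotted lines for all 18417 genes. FOXO targets have the longest blue bar, 18 of 34 genes, and FOXM1 targets the next, 11 of 23.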

How the data were processed

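Gene expression was measured in 2 FOXC1-transfected and 2 vector-transfected MDA-MB-231 samples, called biological replicates in the labels. Nothing states separate transfections, so the p-values cover the spread between these arrays. From 100 ng of RNA per array, the authors made gene-level intensity values on a linear scale with PLIER in Affymetrix Expression Console, per the submitters' processing notes and titles, of which no version or option is known here. The deposited intensity values were used as they stand, as log2 after adding 16, so that folds of dim genes are understated. Arrays carry no read depth, and their number limits the precision.

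GEO's platform annotation gave 21214 of 33297 probe sets a symbol, 19460 of them 1, 1754 several and 12083 none. The test across all 21214 was limma 3.58.1, run in R 4.3.3 (lmFit, eBayes with a trend, two-sided, 2 residual and 18.1 prior degrees of freedom), with Benjamini-Hochberg adjustment at 0.05. A gene is its brightest probe set with 1 symbol. Folds come from the log2 difference by raising 2 to it. The fit was tested on simulated data with few probe sets changed. It recovered 54% of log2 changes of 0.25, 80% of 0.5 and 100% of 1. Far more probe sets passed in the real data, so the adjustment was stricter in the simulation. Simulated noise followed the fitted trend alone. The recovered shares are therefore not the sensitivity of the real comparison. Smaller changes, like those of most members, were not simulated, so a member that did not pass may still have changed. Replicate numbers did not pair the arrays (correlation of deviations -0.01), so no block was used.

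The members and gene lists were chosen with earlier results of these data known. Named by rule are all members, up to 4 genes of each list by size of change among those that passed, every gene of a list with 5 or fewer calls in a direction, the 3 genes most like FOXP2 over the arrays, of which 1 is not reported here, and the markers listed. CAT, TRIB1, IRS2, INSR, BCL2L11, AKT1, AKT2, PLK1, AURKB, SIN3A, SIN3B, PDK3, HYDIN, DNAH5 and ZMYND10 were added after their values were seen, as were the targets with a GTAAACA match. So were DNAH11, SPEF2, RICTOR and SKP2. Genes of the lists without a probe set of their own, 5 of the forkhead list among them, were not analysed here. Promoter sequences and gene order come from RefSeq tables of GRCh38.p14. Alternatives were an added 1 or 64, only probe sets brighter than the 25th or the 50th percentile, median centring, quantile normalization, other variance moderation, the replicate block, leaving out each array, all rows, the mean of a gene's probe sets and an adjusted p of 0.10.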

Additional observations from a re-analysis of the deposited data

How the results depend on the processing

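Of the 3 members that rose, 0 passed without a variance trend, 0 with median centring over all rows, 1 in a fit over all rows and between 1 and 3 without each array in turn. Of the 3 that fell, between 2 and 3 passed without each array, and 1 of 7 tested when dim probe sets (under the 50th percentile) were left out, where FOXO4, FOXP2 and FOXJ1 were not tested. The calls of FOXO4 and FOXP2 held in every alternative that tested them and could have ended them, with log2 changes from -0.57 to -0.31 for FOXO4 and from -0.55 to -0.37 for FOXP2. Signs turned for FOXM1 (without each array in turn from -0.0570 to 0.000939, positive without FOXC1 replicate 2), FOXO3 (without each array in turn from -0.161 to 0.0542, positive without vector replicate 2, and 0.15 from the probe set shared with FOXO3B) and FOXP1 (-0.0205 with median centring over all rows), none of which had passed. Over all genes 2925 rose and 2852 fell, against 1461 and 1790 without a variance trend, 1858 higher in a fit over all rows, and between 1913 and 2951 higher and between 2059 and 3142 lower without each array. The balance of calls moved with the scaling, to 1739 higher and 3396 lower with median centring over all rows and 3758 higher and 2543 lower with centring over named probe sets, so that small rises such as those of the FOXK genes and FOXJ1 hang on it. Without a variance trend the calls numbered 14 in FOXO targets, 3 in FOXO regulators, 1 in FOXM1 targets, 3 in FOXM1 regulators and partners, 5 in FOXK partners and targets, 3 in FOXP partners and targets and 5 in ciliary genes. In a fit over all rows 7 FOXM1 targets passed, and at an adjusted p of 0.10, 6 ciliary genes did. Without each array in turn the calls ran from 1 to 3 in ciliary genes, from 5 to 10 in FOXK partners and targets, from 5 to 12 in FOXM1 regulators and partners, from 7 to 12 in FOXM1 targets, from 8 to 13 in FOXO regulators, from 17 to 22 in FOXO targets, from 6 to 9 in FOXP partners and targets and from 5 to 10 in the other forkhead genes. A group left with 1 array was assumed to vary like the other. The causes were not tested. With the replicate number as a block 3 members rose and 3 fell, and the block moved no total count of calls by more than 1.5 times, though 3 in place of 1 of the other forkhead genes rose. Dim transcripts such as FOXP2 are limited by signal over background, for which no detection calls were used.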

Other observations

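Genes that lie next to the members on their chromosomes were called about as often as all genes. Of 40 neighbours, the nearest 2 measured genes on each side of each member, 4 rose and 9 fell, 32.5% against 31.4% of all genes. The 4 neighbours of FOXO4 on the X chromosome had log2 changes from -0.02 in SLC7A3 to 0.15 in CXorf65, and none passed, where FOXO4 fell by 0.44. Around FOXP2, PPP1R3A (log2 0.08) and MDFIC (0.03) did not pass and TFEC rose (0.45), from dim signals of 52.8 and 56.1 on the FOXC1 arrays and 37.7 and 33.8 on the vector arrays. With FOXP1 at a log2 change of 0.02, its neighbour MITF, the melanocyte and lysosome regulator, had 2871 and 2808 on the FOXC1 arrays and 1695 and 1756 on the vector arrays (log2 0.71 ± 0.04 SE), while FRMD4B (log2 -0.88) and EIF4E3 (-0.44) fell. RHNO1, a DNA damage response gene beside FOXM1, had 4080 and 3992 on the FOXC1 arrays and 4375 and 4338 on the vector arrays (log2 -0.11 ± 0.03 SE), with FOXM1 at -0.03. These neighbours were picked after their values were seen.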
